A study of Arabidopsis thaliana with 11 samples.

Results

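The HAIKU pathway seed size genes are 5 loci listed by name for their known role in seed growth, by a rule that uses no measured value although earlier results of these data were known when the list was made: SHB1 (AT4G25350), MINI3 (AT1G55600), IKU1 (AT2G35230), IKU2 (AT3G19700) and CKX2 (AT2G19500). They are 5 of the 27588 gene identifiers counted by RNA-seq in F1 seeds of Arabidopsis thaliana. Only 2 of the 5, IKU1 and CKX2, had a mean of at least 10 counts per library and could be tested. The h1/H1 seeds had an h1 mother, a Col-0 plant carrying the mutations h1.3-1, h1.2-2 and h1.1-1 in all 3 genes of linker histone H1, and a wild type Ler father. The H1/H1 seeds they were set against had a wild type Col-0 mother and the same kind of father. In h1/H1 seeds the maternal copies therefore lacked H1 function while the Ler copies were wild type. Endosperm and embryo were dissected 8 days after the cross, and the comparison asks whether maternal loss of H1 changed their transcriptomes.

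Libraries C, D and E were h1/H1 endosperm, library F was the H1/H1 library that its column name calls embryo, and libraries A and B were H1/H1 endosperm. Totals were 13726579 to 15399327 counts in C, D and E, 19809010 in F, and 18340997 and 20939575 in A and B. Levels are given as CPM, counts scaled with TMM factors to a library total of 1000000, and 3 counts, the smallest number read as detection, correspond to 0.152 to 0.232 CPM. The mutated genes followed the genotype labels: for H1.2 the h1/H1 endosperm gave 314, 341 and 331 counts, library F gave 1383, and the H1/H1 endosperm gave 1484 and 996, and for H1.3 the 3 h1/H1 libraries gave 0, F gave 10, and the H1/H1 endosperm gave 14 and 9.

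The tissue labels were set against marker genes. The 8 endosperm markers summed to 248 to 333 CPM in h1/H1 endosperm, 223 CPM in library F, and 219 to 229 CPM in H1/H1 endosperm, with PHE1 at 0 in C and D. The 8 seed coat markers, genes of a maternal tissue outside the endosperm, were all detected in every library and summed to 4458 to 6527 CPM in h1/H1 endosperm, 4510 CPM in F, and 4056 to 4434 CPM in H1/H1 endosperm. Most of each sum was TT10, at 3321 to 4545 CPM in h1/H1 endosperm, 3622 CPM in F, and 2370 to 4102 CPM in H1/H1 endosperm. The 10 embryo markers summed to 9.99 to 18.1 CPM in h1/H1 endosperm, 7.19 CPM in F, and 16.4 to 17.6 CPM in H1/H1 endosperm, with DRN at 0 in all 6 libraries. Of the 10 embryo markers, 3 (PLT1, STM and WOX5) were higher in F than in both H1/H1 endosperm libraries, 4 (CUC1, CUC3, DRNL and WOX2) were lower and 3 were neither. Of the 8 endosperm markers, 4 (PHE1, FWA, FIS2 and YUC10) were higher in F than in both, 3 (MEA, ZOU and ALE1) were lower and 1 was neither. Summed, the embryo markers were lowest in F of the 6 libraries, and the endosperm markers of F lay inside the H1/H1 endosperm range. Both sums leaned on few genes. CUC1 was at 4.51 CPM in F and 13.2 to 16.8 CPM in H1/H1 endosperm. PHE1 was at 33.9 CPM in F and 0.0517 to 0.684 CPM in H1/H1 endosperm. ALE1 was at 97.0 CPM in F and 108 to 154 CPM in H1/H1 endosperm. The sums did not bear out the embryo label of F, but they rest on these few genes, and single markers on both lists went either way. Its tissue was left unsettled, and it was kept outside both endosperm groups and is called library F. For h1/H1 over H1/H1 endosperm the paper reported FWA and FIS2 as reduced and MEA as unchanged. With A and B alone as H1/H1 endosperm, their log2 fold changes were 0.11, 0.01 and -0.07. Whether F is the H1/H1 endosperm sample missing from that group was not tested. Library B stood apart from the rest: 8 heat shock genes summed to 152 to 642 CPM in h1/H1 endosperm, 279 CPM in F, and 477 CPM in A and 3523 CPM in B among H1/H1 endosperm, so results are also given without B. In such bulk samples, fewer cells of a type and less RNA per cell cannot be told apart.

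As background, the HAIKU pathway promotes early growth of the endosperm, and through it sets how large the seed becomes. SHB1 is a nuclear regulator recruited to the promoters of MINI3 and IKU2, MINI3 is a WRKY transcription factor, IKU1 is a VQ motif protein that binds MINI3, and IKU2 is a leucine-rich repeat receptor kinase. CKX2 is a cytokinin dehydrogenase, an enzyme that breaks down the hormone cytokinin, and its gene is activated by this pathway in endosperm. WRKY proteins bind the W-box, whose core reads TTGAC.

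The upstream sequences of the 2 members with tested levels are printed because CKX2 is the known target of the WRKY factor and IKU1 is the partner of that factor. Each run is 250 bases ending directly before the annotated transcript, written 5′ to 3′ on the strand of the gene, from the RefSeq genome TAIR10.1. CKX2 lies on the minus strand at chr2:8444204-8447355, with 5 exons, and its window is chr2:8447356-8447605. IKU1 lies on the plus strand at chr2:14842291-14844465, with 1 exon in its longest transcript, and its window is chr2:14842041-14842290. Capitals mark the W-box core TTGAC or its reverse complement GTCAA, the 5 letters searched on both strands, and no other motif was searched.
CKX2: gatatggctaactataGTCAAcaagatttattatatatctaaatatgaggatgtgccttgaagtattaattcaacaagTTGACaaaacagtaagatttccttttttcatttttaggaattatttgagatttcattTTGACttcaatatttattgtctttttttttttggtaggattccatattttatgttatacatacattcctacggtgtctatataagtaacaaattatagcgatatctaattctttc
IKU1: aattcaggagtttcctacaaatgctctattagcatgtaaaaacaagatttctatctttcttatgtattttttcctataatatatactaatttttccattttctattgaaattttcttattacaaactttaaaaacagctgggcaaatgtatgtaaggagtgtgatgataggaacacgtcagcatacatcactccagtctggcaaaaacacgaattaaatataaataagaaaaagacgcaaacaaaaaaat

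The CKX2 window held 3 cores, which begin 234, 172 and 115 bases before the transcript. Of 27443 windows of the same length before protein-coding genes, 44.9% held at least 1 core, 14.1% held 2 or more and 3.38% held 3 or more. The IKU1 window held 0. MINI3 (minus strand, chr1:20774046-20776294, 5 exons) had 2 cores, beginning 24 and 6 bases before its annotated transcript, SHB1 (minus strand, chr4:12962965-12966629, 11 exons) had 1, at 99 bases, and IKU2 (plus strand, chr3:6843662-6847275, 2 exons) had 0. The transcripts of IKU2 and MINI3 are annotated with 0 and 1 bases before the start codon, so their windows may hold leader sequence. A match says only that these letters are present, and none of the windows was tested for binding.

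**Figure D1:**
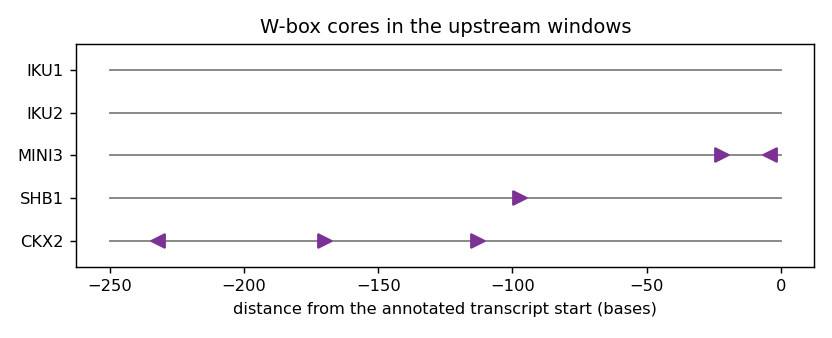
W-box cores in the 250 bases before each annotated transcript. The x axis is the distance from the transcript start in bases, and each arrowhead is 1 core, pointing right on the gene's own strand and left on the other. CKX2 has 3 cores, MINI3 has 2, SHB1 has 1, and IKU1 and IKU2 have 0.

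The regulator SHB1 was at the edge of detection. It had 0, 0 and 1 counts in h1/H1 endosperm, 0 in library F, and 1 and 1 in H1/H1 endosperm. Its 3 counts over the 6 libraries amount to 0.0294 CPM before TMM scaling (exact Poisson 95% interval 0.619 to 8.77 counts). No fold change can be given, because neither endosperm group was above the floor of 3 counts.

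MINI3, the WRKY factor, was listed at 0 counts in all 6 libraries. With 3 counts taken as the most that a count of 0 allows, a basis other than that of the exact Poisson intervals, the limit over the 3 h1/H1 endosperm libraries was 0.0698 CPM before TMM scaling, over F 0.151, and over the 2 H1/H1 endosperm libraries 0.0764. Across the 6 libraries together the limit was 0.0294 CPM. These limits and the intervals here cover counting error only.

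IKU2, the receptor kinase, had 5, 1 and 0 counts in h1/H1 endosperm, 0 in library F, and 0 and 0 in H1/H1 endosperm. Nearly all of its signal came from library C. The 6 counts in h1/H1 endosperm had an exact Poisson 95% interval of 2.20 to 13.1. Set as they stand against a floor of 3 counts over the H1/H1 endosperm group, they gave a 1.83-fold ratio before TMM scaling. That ratio leaves out the counting error of the 6 counts, so it is not a lower bound, and it rests on C. Without C, 1 count remained in h1/H1 endosperm and no fold could be given. Of the 3 low members, MINI3 had no maternal read, IKU2 had 1, in C, and SHB1 had 1, in B.

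IKU1, the VQ protein, was by contrast an abundant transcript. It had 886, 1128 and 1087 counts in h1/H1 endosperm, 1397 in library F, and 1829 and 1596 in H1/H1 endosperm. On the CPM scale its levels were 61.9, 87.1 and 65.6 in h1/H1 endosperm, 70.7 in F, and 96.3 and 82.5 in H1/H1 endosperm. The groups overlapped, since library D lay above library B. In every library its CPM exceeded that of 86.1 to 91.5% of the genes with any count.

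The mean IKU1 level was 71.5 ± 13.6 CPM in h1/H1 endosperm (SD, n = 3) and 89.4 ± 9.71 CPM in H1/H1 endosperm (SD, n = 2). The log2 fold change was -0.32 (SE 0.26, 95% interval -0.92 to 0.27), with an adjusted p of 1 in edgeR's quasi-likelihood test. IKU1 therefore did not differ beyond the spread between libraries, and the interval leaves room for a fall of up to 0.92 on the log2 scale. Under this test 0% of the 18951 genes tested were called at an adjusted p under 0.05 and a 2-fold change, 706 had an unadjusted p under 0.05, and DESeq2 called 49. Leaving out library B gave -0.43, and over all single libraries left out the value ran from -0.49, without D, to -0.21, without A. The p-values measure the spread between these libraries, which the series calls biological replicates without naming the plants.

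**Figure D2:**
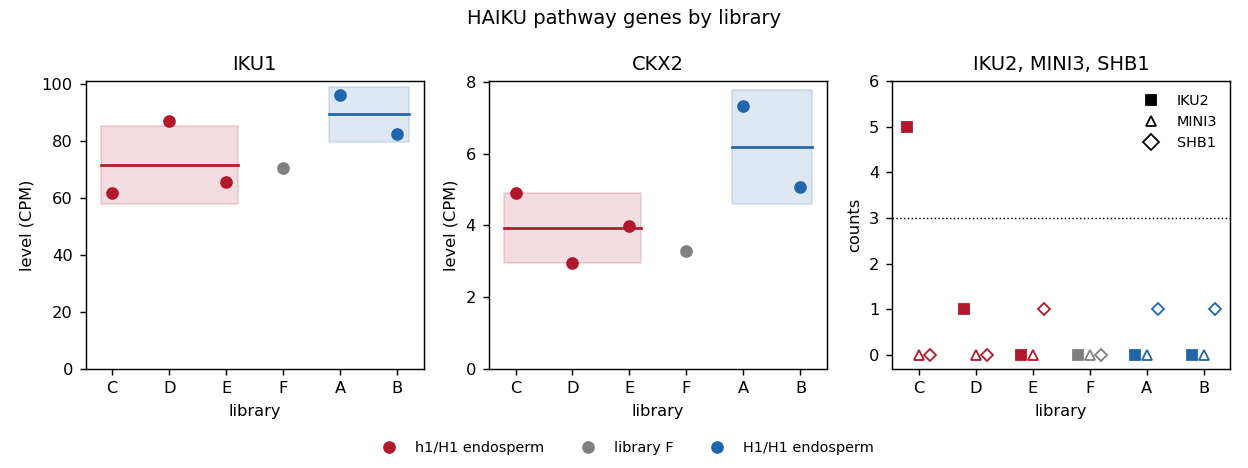
Levels of the 5 HAIKU pathway genes in each library. The left and middle panels plot IKU1 and CKX2 in CPM (lines: group mean, bands: 1 SD, n = 3 for h1/H1 and n = 2 for H1/H1 endosperm), and the right panel plots counts of IKU2, MINI3 and SHB1, with a dotted line at the floor of 3 counts. IKU1 overlaps between the groups, CKX2 does not (highest h1/H1 value 4.89 CPM, lowest H1/H1 value 5.07 CPM), and of the 3 low genes only IKU2 in C exceeds the floor.

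CKX2, the cytokinin dehydrogenase, was present at a low level in every library. It had 70, 38 and 66 counts in h1/H1 endosperm, 65 in library F, and 139 and 98 in H1/H1 endosperm. In CPM these were 4.89, 2.94 and 3.98 in h1/H1 endosperm, 3.29 in F, and 7.32 and 5.07 in H1/H1 endosperm. All 3 h1/H1 libraries were below both H1/H1 endosperm libraries, but C and B lay close together. Library F, also H1/H1 and of unsettled tissue, lay inside the h1/H1 range, so the separation is one from A and B only. CKX2 exceeded 34.6 to 45.9% of the genes with any count. The same full separation, lower in h1/H1, was found for 8.19% of the genes tested, and separation in either direction for 16%.

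The mean CKX2 level was 3.94 ± 0.98 CPM in h1/H1 endosperm (SD, n = 3) and 6.19 ± 1.59 CPM in H1/H1 endosperm (SD, n = 2). Its log2 fold change was -0.65 (SE 0.48, 95% interval -1.75 to 0.45, adjusted p = 1 in edgeR), so the difference did not exceed the spread between libraries and its direction was not resolved. Leaving out the H1/H1 library A, where CKX2 was highest, gave -0.36, and leaving out B gave -0.89. The summed seed coat markers were higher in h1/H1 than in H1/H1 endosperm, but E (4458 CPM) and B (4434 CPM) nearly met. Of the 8 markers 7 had a log2 fold change above 0, TT12 was at -1.35, and 0 were called. Within H1/H1 endosperm the marker LDOX was at 496 CPM in A and 51.6 CPM in B, whereas TT10 was at 2370 CPM in A and 4102 CPM in B. The near-equal sums of A and B therefore hide differences between single markers. The part of seed coat RNA in the CKX2 and IKU1 values was not tested.

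Library F had less of both transcripts than either H1/H1 endosperm library. The log2 fold change of F over H1/H1 endosperm was -0.34 for IKU1 (SE 0.35) and -0.91 for CKX2 (SE 0.67), each with an adjusted p of 1 in edgeR. F lay below both H1/H1 endosperm libraries for 30.8% of all genes tested, and 0.0158% were called, 3 genes, all higher in F. F is 1 library, assumed in the fit to vary like the others, so these values describe that library.

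The allele counts, reads assigned to a parent by sequence differences between the parents, were informative for CKX2 alone. Maternal (Col-0) reads of CKX2 numbered 8, 4 and 2 in h1/H1 endosperm, 11 in library F, and 15 and 8 in H1/H1 endosperm, under the mean of 10 that a test needed. As CPM of the maternal reads they were 10.6, 5.89 and 2.37 in h1/H1 endosperm, 10.6 in F, and 16.2 and 7.78 in H1/H1 endosperm, so the groups overlapped. Fitted with no filter on low values, the log2 fold change was -0.93 (SE 0.86, adjusted p = 0.982 in edgeR). Among loci that passed the minimum 0.01% were called.

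In library F, the 1 library for which reads of both parents were used, 11 of the 12 CKX2 reads assigned to a parent were maternal. That is 91.7% (exact Clopper-Pearson 95% interval 61.5 to 99.8%), beside 82.1% (82.0 to 82.2%) over all loci in F, so a difference was not detectable at this depth. The paper expected maternal and paternal DNA reads in equal number from embryo, and it warns that seed coat RNA can skew maternal ratios. What the share over all loci says of the tissue of F was not tested. IKU1 had no maternal read in any of the 6 libraries and no Ler read in F, despite its 886 to 1829 counts. This was not particular to IKU1, since 798 of 6533 genes whose counts averaged 500 or more, or 12.2%, had no assigned read.

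Within the cytokinin dehydrogenase family, whose members break down the same hormone, the place of CKX2 by mean level per length differed between the groups, though not in every library. Mean levels over the 6 libraries were 8.00 ± 1.26 RPKM (CPM per kilobase of the longest annotated transcript) for CKX5, 5.83 ± 1.04 RPKM for CKX3, 2.75 ± 0.95 RPKM for CKX2 and 2.73 ± 0.74 RPKM for CKX6 (SD, n = 6 each). The ranges of CKX5 (6.33 to 9.48 RPKM) and CKX3 (4.76 to 7.77 RPKM) overlapped, and CKX2 (1.76 to 4.39 RPKM) and CKX6 (2.01 to 3.71 RPKM) covered much the same range. CKX2 averaged 2.36 RPKM in h1/H1 endosperm, 1.97 RPKM in F and 3.71 RPKM in H1/H1 endosperm, while CKX6 averaged 2.85, 3.71 and 2.07 RPKM in the same order of groups. By these means CKX2 ranked 4 of 7 in h1/H1 endosperm and in F, and 3 of 7 in H1/H1 endosperm, an order for which no test was made. In the h1/H1 library E, CKX2 was above CKX6 per length, which is the order of the H1/H1 means. CKX1 and CKX7 averaged 0.36 and 0.29 RPKM with overlapping ranges, and CKX4 had only 2 counts, both in library B. By the same scale IKU1 had 28.5 to 40.1 RPKM in h1/H1 endosperm, 32.5 RPKM in F, and 37.9 and 44.3 RPKM in H1/H1 endosperm, above every one of these enzymes.

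**Figure D3:**
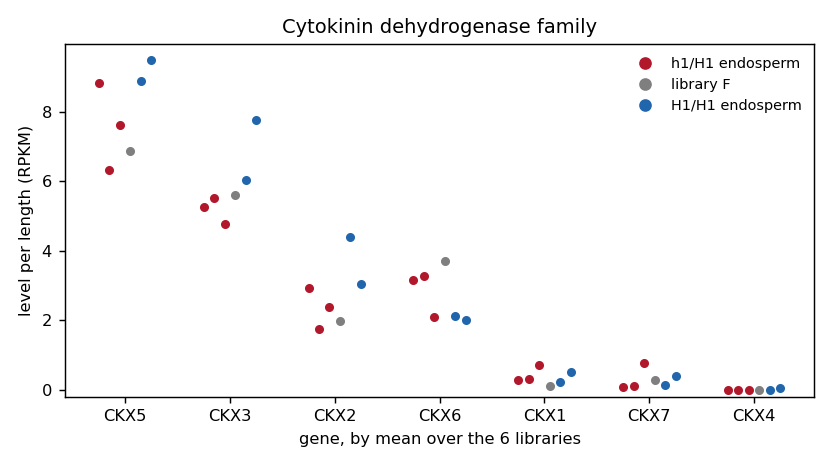
Levels per length of the 7 cytokinin dehydrogenase genes. The y axis is RPKM and each point is 1 library, coloured by group, with genes ordered by their mean over the 6 libraries. CKX2 (1.76 to 4.39 RPKM) and CKX6 (2.01 to 3.71 RPKM) share a range below CKX3 (4.76 to 7.77 RPKM) and CKX5 (6.33 to 9.48 RPKM).

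Of the other 6 family members 5 were tested and 0 were called between h1/H1 and H1/H1 endosperm. CKX6 had the highest log2 fold change of them, 0.46 (SE 0.45), with 6.36, 6.57 and 4.22 CPM in h1/H1 endosperm, 7.44 CPM in F, and 4.26 and 4.03 CPM in H1/H1 endosperm. CKX3 had the lowest, -0.42 (SE 0.34), with 9.08, 9.50 and 8.21 CPM in h1/H1 endosperm, 9.67 CPM in F, and 10.4 and 13.4 CPM in H1/H1 endosperm. Like CKX2, CKX3 and CKX5 were lower in all 3 h1/H1 libraries than in both H1/H1 endosperm libraries. This separation was found for 8.19% of all genes tested, and CKX6 overlapped between the groups.

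Among the isopentenyltransferases, which make cytokinin, 4 of 9 were tested and 0 were called. IPT1 had the lowest log2 fold change of the list, -2.25 (SE 0.85, adjusted p = 1 in edgeR, unadjusted p = 0.0293). It had 3, 3 and 9 counts in h1/H1 endosperm, 19 in library F, and 21 and 41 in H1/H1 endosperm. The groups did not overlap, as for 16% of all genes tested in either direction, and the counts were few. IPT2, a transferase that acts on tRNA, had the highest value of the list, -0.04 (SE 0.48), a sign that turned when D or B was left out. IPT6 had 493, 867 and 548 counts in h1/H1 endosperm, 493 in F, and 750 and 1767 in H1/H1 endosperm, and it was highest in B. For IPT4, 13 counts were found in F and 0 elsewhere. IPT6 and IPT4 were singled out after their values were seen.

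The 3 cytokinin receptors, membrane kinases that sense the hormone, were all tested and 0 were called. AHK3 had the lowest log2 fold change, -0.38 (SE 0.24), with 1360, 1434 and 2067 counts in h1/H1 endosperm, 2746 in F, and 2545 and 2948 in H1/H1 endosperm. AHK4 was nearly level, at -0.05 (SE 0.24), with 48.0, 40.9 and 50.2 CPM in h1/H1 endosperm, 46.2 CPM in F, and 49.3 and 46.7 CPM in H1/H1 endosperm. Scaled to CPM, AHK3 was lower in h1/H1 endosperm without overlap, as were 8.19% of all genes tested. AHK4 overlapped between the groups, and its sign turned without D.

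The type-A response regulators are induced by cytokinin and dampen its signal, and 5 of 10 were tested with 0 called. ARR4 had the highest log2 fold change, 0.44 (SE 0.66), with 17, 34 and 42 counts in h1/H1 endosperm, 116 in F, and 21 and 39 in H1/H1 endosperm, and it turned to -0.50 when F joined the H1/H1 endosperm group. ARR16 had the lowest, -1.17 (SE 0.68), with 37, 85 and 114 counts in h1/H1 endosperm, 70 in F, and 81 and 383 in H1/H1 endosperm. That value rested on library B, and without B it was 0.33.

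Abscisic acid and brassinosteroid act on HAIKU genes from upstream, and all 5 of their genes on the list were tested with 0 called. DET2, a brassinosteroid biosynthesis enzyme, had the highest log2 fold change, 0.25 (SE 0.34), with 11.2, 12.5 and 10.7 CPM in h1/H1 endosperm, 7.59 CPM in F, and 9.05 and 10.2 CPM in H1/H1 endosperm. ABA2, an enzyme of abscisic acid synthesis, had the lowest, -0.62 (SE 0.32), with 21.1, 43.0 and 35.8 CPM in h1/H1 endosperm, 56.9 CPM in F, and 50.6 and 52.0 CPM in H1/H1 endosperm. Neither gene overlapped between the groups, DET2 being higher in h1/H1 endosperm and ABA2 lower. Separation in either direction was found for 16% of all genes tested.

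Of 12 seed size genes outside the pathway, 11 were tested and 0 were called. KLU, a cytochrome P450 that promotes organ and seed growth, had the highest log2 fold change, 1.74 (SE 1.42), with 0, 56 and 55 counts in h1/H1 endosperm, 30 in F, and 10 and 19 in H1/H1 endosperm. AGL62, a MADS-box gene that delays endosperm cellularization, had the lowest, -0.65 (SE 1.04), with 7, 17 and 2 counts in h1/H1 endosperm, 19 in F, and 26 and 12 in H1/H1 endosperm. Both genes overlapped between the groups, and the AGL62 value was 0.02 without A.

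Over the 6 lists together, 33 of 45 genes were tested, 0 were called and 1, IPT1, had an unadjusted p under 0.05. Their log2 fold changes of h1/H1 over H1/H1 endosperm ran from -2.25 to 1.74 with a median of -0.15, and 11 of 33 were above 0. Over all 18951 genes tested the median was -0.02, 9113 were above 0, 0 were called, and 706 had an unadjusted p under 0.05 in edgeR. The mutated gene H1.2 was not called either (log2 fold change -1.51, unadjusted p = 5.86e-04 in edgeR). A count of 0 called therefore does not show that these genes were unchanged.

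**Figure D4:**
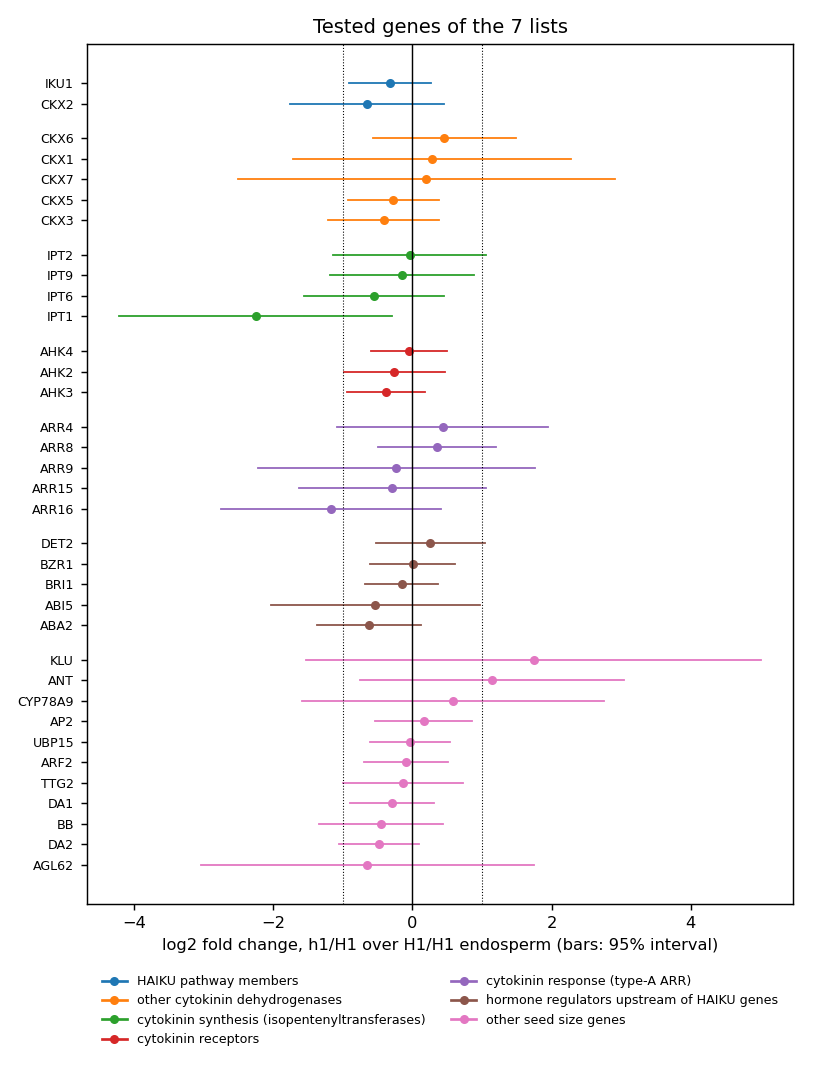
Log2 fold change of h1/H1 over H1/H1 endosperm for the tested genes of the HAIKU pathway and the 6 related lists, coloured by list. Points are edgeR estimates, bars are 95% intervals, the solid line marks 0 and the dotted lines mark a 2-fold change. The intervals of IKU1 (-0.92 to 0.27) and CKX2 (-1.75 to 0.45) span 0, and IPT1 is the 1 gene whose interval does not.

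In library F against H1/H1 endosperm the same 33 genes had a median log2 fold change of -0.10, with 0 called and 11 above 0. Over all 18951 genes tested the median in F was -0.04, and 8899 were above 0. Among the extremes of the lists, ARR4 was the highest and ARR9 the lowest type-A response regulator, and CYP78A9 was the highest seed size gene. CYP78A9, a relative of KLU that also promotes seed growth, had 412 counts in F and 22 and 35 in H1/H1 endosperm (log2 fold change 3.81, SE 1.18, adjusted p = 0.659 in edgeR), beside 5, 15 and 85 counts in h1/H1 endosperm. ARR9 had 0 counts in F and 16 and 15 in H1/H1 endosperm. The H1/H1 mean was 5.33-fold above a floor of 3 counts in F. That ratio leaves out counting error and spread in H1/H1 endosperm, so it is not a lower bound. ARR4, with the counts given above, was at 1.91 (SE 0.83) on the log2 scale.

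The remaining extremes of each list in F were small or uncertain. CKX6 was at 0.84 and CKX1 at -1.77 (SE 1.31) on the log2 scale, and IPT2 was at 0.52 and IPT9 at -1.46 (SE 0.66). The receptors AHK3 and AHK2 were at -0.04 and -0.27, the hormone genes ranged between 0.46 for ABI5 and -0.34 for DET2, and TTG2, a WRKY gene of the seed coat, had 110 counts in F against 190 and 239 in H1/H1 endosperm. None of these passed the test, and the signs of AHK3 and ABI5 turned without B.

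Finally, the genes whose log2(CPM + 1) over the 6 libraries ran most like that of the 2 measured members were listed as a description. For IKU1 they were AT4G20953, AT5G37890 and AT3G28940, each with a Pearson r of 0.99, and 32 genes had an r above 0.95. For CKX2 they were AT4G37550, GSTF8 and GMI1, with an r of 0.99, 0.99 and 0.98, and 14 genes had an r above 0.95. IKU1 and CKX2 themselves had an r of 0.34 over the 6 libraries and 0.28 over the 5 endosperm libraries. All these points share library depth and scaling, and with so few libraries high values are found among many genes.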

How the data were processed

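Dissected endosperm and embryo RNA was sequenced from F1 seeds. The authors trimmed reads with fastp, quantified TAIR10 transcripts with Salmon 1.9.0 and deposited gene counts, which are whole numbers before normalization although the table is called normalized. The deposited allele counts come from their separate assignment of reads to Col-0 or Ler. Groups were read from column names, which fit 6 libraries. Of the other 10 columns of per-sample values, 5 count columns were not used because their names give no group. The rest hold the Ler reads of the endosperm libraries. Their names give the group, but a rule set for this work kept 1 allele column per endosperm library. No parental share is therefore given for endosperm. The H1/H1 endosperm group is 1 library short of the 3 samples listed.

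The members and lists were chosen with earlier results of these data known. edgeR 4.0.16 (R 4.3.3) with TMM and 3 groups was fitted over every gene averaging 10 or more counts. A gene was called at a 2-fold change and a Benjamini-Hochberg adjusted p under 0.05. SEs are the log2 fold change over the square root of F. The fit was tested on simulated data whose planted changes were far larger than those estimated for IKU1 and CKX2. That test does not show whether changes as small as theirs would be found. Named genes are the members, the 3 most alike genes of each tested member, and the highest and lowest fold change of each list. The 8 heat shock genes were chosen after the data were seen. Maternal reads are given for members only. Of the identifiers, 27390 matched TAIR10.1 (RefSeq). Close relatives, such as the CKX genes, could have shared reads. Alternatives were DESeq2 1.42.0 and its size factors, no filter or a mean of at least 50 counts, no limit on the fold change, the 5 endosperm libraries alone, F counted as H1/H1 endosperm, and each library left out.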

Additional observations from a re-analysis of the deposited data

How the results depend on the processing

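IKU1 and CKX2 kept a negative log2 fold change without a call under every alternative run, from -0.49 to -0.21 and from -0.89 to -0.36 for h1/H1 over H1/H1 endosperm (adjusted p 0.937 to 1 and 0.938 to 1 in edgeR and DESeq2), and from -0.44 to -0.22 and from -1.15 to -0.62 for library F over H1/H1 endosperm. Counts of called genes did depend on the choices. Between h1/H1 and H1/H1 endosperm, DESeq2 called 49 genes, and leaving out 1 library gave 0 to 109, with 109 without A and 9 without B. For library F, DESeq2 called 168, no filter gave 48, and leaving out 1 library gave 0 to 203, with 203 without A. For maternal reads, DESeq2 called 11, no filter gave 77, and leaving out 1 library gave 0 to 35, with 35 without A. The cause was not tested.

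Of the values of single genes under an alternative, 304 kept their direction, 8 changed sign, and none gained a call. None of these genes was called in the main fit, so no call could be lost. The setting with no limit on the fold change reuses the main estimates, so its values, counted among the 304, could not change. Apart from IKU1 and CKX2, the genes were picked as the extremes of their lists. ARR4 was at -0.50 with F counted as H1/H1 endosperm. Leaving out 1 library gave -0.42 to 0.25 for IPT2, -0.11 to 0.032 for AHK4, -1.70 to 0.023 for AGL62 and -1.89 to 0.33 for ARR16 in h1/H1 over H1/H1 endosperm, and -0.13 to 0.054 for AHK3 and -0.26 to 1.96 for ABI5 in F. No paired analysis was possible because the columns carry no replicate numbers. SHB1, MINI3 and IKU2 had so few counts that only counts and limits could be given. Whether depth or low expression accounts for this was not tested.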
